A study of Drosophila melanogaster with 4 samples.

Results

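The Hox genes of Drosophila melanogaster lie in 2 clusters on chromosome arm 3R, and here they are described by how little of the histone mark H3K27me1 was called over them. The Antennapedia complex holds lab, pb, Dfd, Scr and Antp, and the bithorax complex holds Ubx, abd-A and Abd-B. Each complex was taken as a fixed window on FlyBase release 5 of the genome, the release named in the headers of the deposited lists. The Antennapedia complex window ran from 2480000 to 2830000 (350 kb) and the bithorax complex window from 12480000 to 12800000 (320.0 kb), both on 3R. The members are the H3K27me1 regions that touch a window. There were 3 of them among the 8209 regions of replicate 1, 5 among the 6901 of replicate 2, and 7 among the 12359 enriched regions of the list for the whole series (the series-wide list).

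The data come from chromatin immunoprecipitation followed by sequencing (ChIP-seq) in wild-type larvae of the Oregon-R strain at instar 3. All samples share that strain, genotype and stage. Sonicated chromatin from formaldehyde-fixed material was immunoprecipitated using a polyclonal rabbit antibody from Millipore, raised against a synthetic peptide with monomethylated lysine 27 of human histone H3. Of the 4 samples, 2 are ChIP replicates with a region list each, another list covers the series as a whole, and 2 are inputs, which were not analysed here. Nothing in the labels ties the ChIP replicates to separate collections of larvae, and their spread may be technical only. Read depth is unknown, so a stretch without a region is one where no enrichment was called, not one shown to lack the mark. The labels name no tissue beyond the larval stage, so a window with the mark in few cells and a window with little of it in many cells cannot be told apart.

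Hox genes encode homeodomain transcription factors that give each body segment its identity. From head to tail, lab acts in the head and midgut, pb in the mouthparts, Dfd in the jaw segments, Scr in the labial segment and the front of the thorax, and Antp in the thorax. Ubx specifies the rear of the thorax and the front of the abdomen, abd-A the middle abdomen, and Abd-B the rear abdomen and genitalia. Both complexes are classic targets of Polycomb repression. The enzyme Enhancer of zeste, E(z), methylates lysine 27 of histone H3 in steps, and the trimethylated form is bound by the Polycomb protein over Hox genes in cells that keep them silent. The monomethylated form, H3K27me1, is the first of these steps, and in mouse embryonic stem cells it is known over the bodies of transcribed genes.

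All 8 symbols were found on 3R in a RefSeq gene table of release 6, in the order lab, pb, Dfd, Scr, Antp, Ubx, abd-A, Abd-B. Between lab and Antp that table lists 38 other entries, 14 of them protein-coding. They include zen, zen2 and the maternal anterior determinant bcd, the adhesion protein gene Ama, the pair-rule gene ftz and a row of cuticle protein genes (Ccp84A). Between Ubx and Abd-B it lists 13 others, among them the bxd and iab noncoding RNAs and the microRNAs mir-iab-4 and mir-iab-8. The table and the lists are on different releases, so the gene content of the windows is that of their definition, and which Hox gene a given region lies in was not analysed here.

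H3K27me1 regions were nearly absent from both Hox complexes. Together the windows span 670.0 kb, of which 5.28 kb lay in regions of replicate 1, 11.1 kb in regions of replicate 2 and 14.1 kb in regions of the series-wide list. That is 0.787%, 1.65% and 2.10% of their bases, against 21.3%, 17.2% and 31.7% of the bases of 2L, 3L, 3R and X in the same lists. The number of regions was low as well. The Antennapedia complex had 5.71 regions per Mb in each replicate, against 63.9 and 52.9 per Mb on these arms. The bithorax complex had 3.12 per Mb in replicate 1 and 9.37 per Mb in replicate 2.

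**Figure D1:**
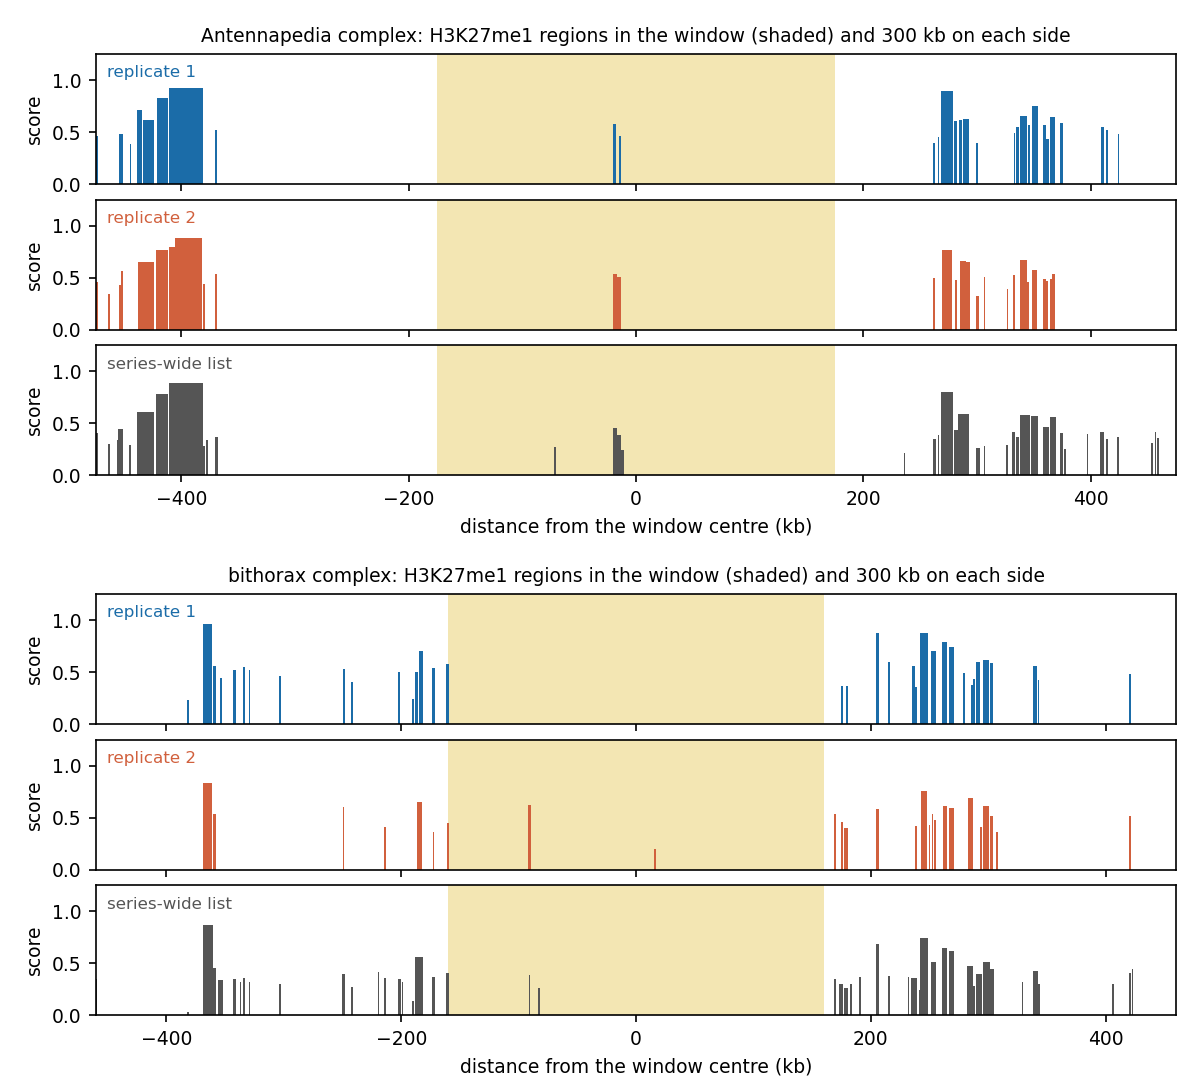
H3K27me1 regions of each list across the Antennapedia complex (upper 3 tracks) and the bithorax complex (lower 3 tracks). The horizontal axis is the distance from the window centre in kb, each bar is a region drawn to scale, and its height is the score the authors deposited. The shaded windows hold between 1 and 4 regions per list, while the flanks of both sides combined, 600 kb in all, hold 24 to 45.

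In the Antennapedia complex, the cluster of the head and anterior thorax genes, regions covered 4241 bases in replicate 1, 6498 in replicate 2 and 10427 in the series-wide list. These are 1.21%, 1.86% and 2.98% of the window. The 300 kb flanks of both sides combined were covered at 20.7% in replicate 1, 18.7% in replicate 2 and 25.8% in the series-wide list. The complex was far below its flanks in every list. The mean of the replicates was 1.53% ± 0.46 in the window and 19.7% ± 1.4 in its flanks, a difference of -18.2 ± 1.8 percentage points (SD, n = 2). The window carried 0.079 ± 0.029 times the covered share of its flanks and 0.083 ± 0.036 times that of the 4 arms.

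In the bithorax complex, the cluster of the posterior thorax and abdomen genes, regions covered 1035 bases in replicate 1, 4553 in replicate 2 and 3657 in the series-wide list. These are 0.323%, 1.42% and 1.14% of the window. Its flanks were covered at 15.2%, 10.5% and 20.6% in the same order. This complex too was far below its flanks in every list, although the replicates differed more over it than over the Antennapedia complex. The mean of the replicates was 0.87% ± 0.78 in the window and 12.9% ± 3.3 in its flanks, a difference of -12.0 ± 4.1 percentage points (SD, n = 2). The window carried 0.078 ± 0.081 times the covered share of its flanks and 0.049 ± 0.048 times that of the 4 arms. The difference from the flanks was -14.9 points in replicate 1 and -9.08 points in replicate 2. With 2 replicates the smallest two-sided p of an exact sign-flip permutation test is 0.5, and none is attached to either difference. The covered shares of the 2 complexes, 1.53% and 0.87%, differed by less than the spread between the replicates of the bithorax complex.

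**Figure D2:**
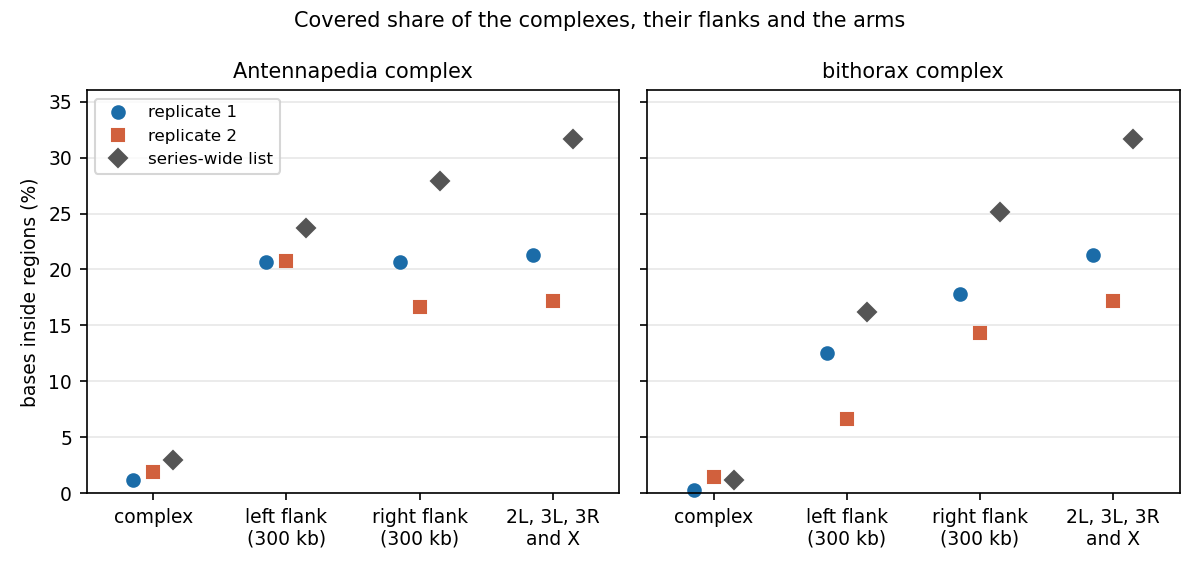
Percentage of bases inside H3K27me1 regions (vertical axis) in each complex, its left and right 300 kb flanks, and the arms 2L, 3L, 3R and X together. Each point is 1 list. Both complexes lie at or below 2.98% in every list, and no flank lies below 6.65%.

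Each flank was also above its complex when taken alone. On the left of the Antennapedia complex 20.7% and 20.8% of bases were covered in replicates 1 and 2, and on the right 20.6% and 16.7%. That left flank held few regions, 26.7 and 33.3 per Mb in replicates 1 and 2, and the 150 kb next to the window held no covered base. For the bithorax complex the left flank had 12.6% and 6.65%, and the right flank 17.8% and 14.4%. Both flanks of the bithorax complex thus had a lower covered share than 3R as a whole, which was covered at 21.1% and 16.9%. In number of regions only the left flank of the bithorax complex was lower than 3R among these 2 flanks, with 53.3 and 23.3 per Mb in replicates 1 and 2. The right flank had 63.3 and 56.7 per Mb, against 62.1 and 51.8 on 3R.

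The windows were next set beside all windows of their own length on 2L, 3L, 3R and X, moved in steps of 1 kb. For the Antennapedia complex there were 96485 such windows, with a median covered share of 19.9% in replicate 1 and 15.5% in replicate 2. In replicate 1, 668 of them (0.692%) were covered no more than the complex. In replicate 2 these were 1536 (1.59%), and in the series-wide list 497 (0.515%). The complex lay within the lowest 5% of windows in each list, whose upper bound stood at 5.45%, 3.63% and 10.03%. Some of the low windows overlap the complex. In replicate 1 those that overlap it spanned 2272001 to 2916001, well past the complex on both sides. Among the 95785 windows that share no base with it, 0.389%, 1.29% and 0.237% were covered as little in replicate 1, replicate 2 and the series-wide list.

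For the bithorax complex there were 96605 windows, with a median covered share of 19.8% in replicate 1 and 15.4% in replicate 2. Windows covered no more than the complex numbered 165 (0.171%) in replicate 1, 1322 (1.37%) in replicate 2 and 118 (0.122%) in the series-wide list. Among the 95965 windows that share no base with it, these shares were 0.155%, 1.37% and 0.113%. In both replicates at once the low windows numbered 159 (0.165%), against 652 (0.676%) for the Antennapedia complex. Both of these counts include windows that overlap the complex itself. Windows next to each other are nearly the same sequence, and only 278 windows of the Antennapedia length and 304 of the bithorax length fit on these arms without overlap. The shares are therefore a description of position within these lists, with no p. Bases to which reads cannot be placed count in every window, and their number in the complexes was not analysed here.

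**Figure D3:**
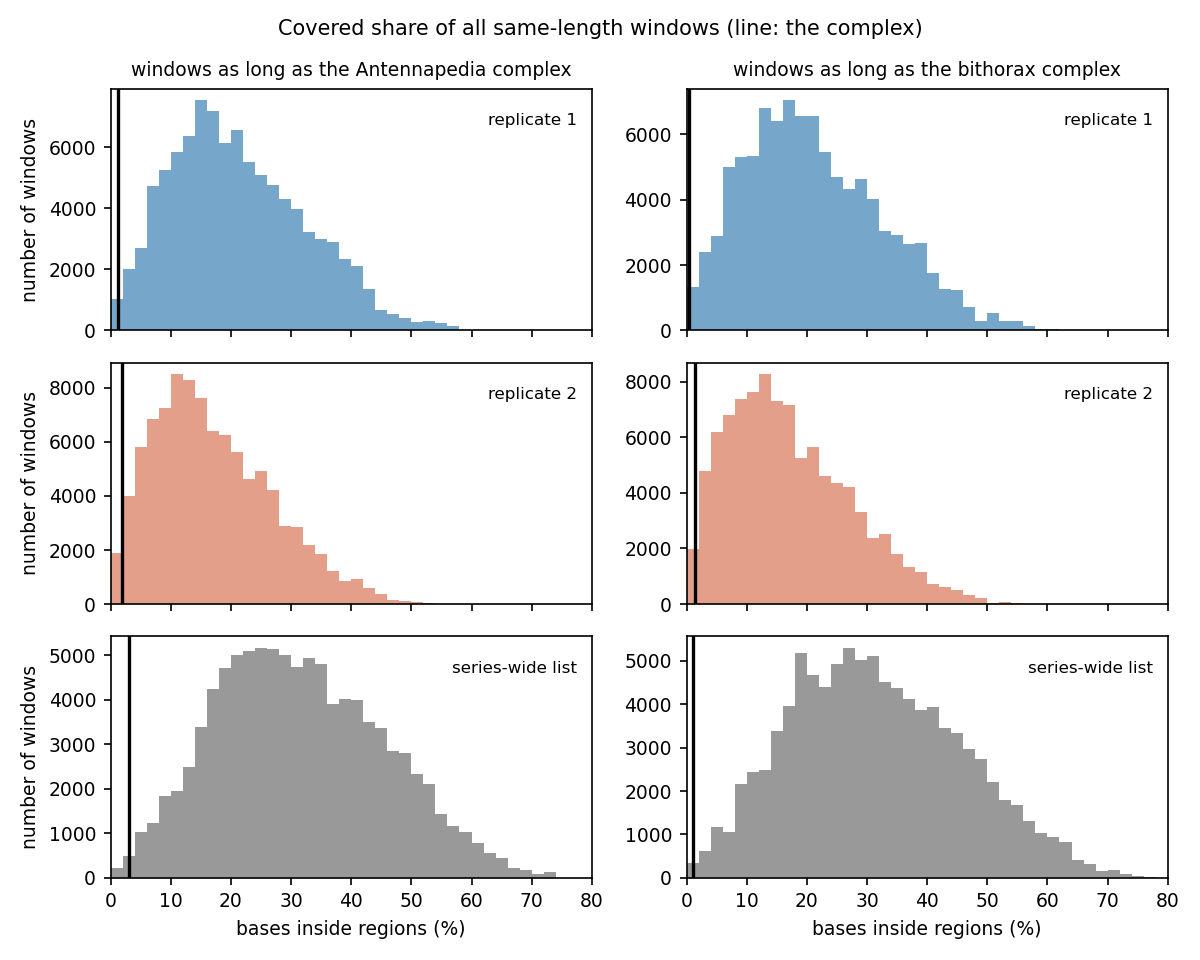
Distribution of the covered share (horizontal axis, % of bases inside regions) over all windows as long as the Antennapedia complex (left) and the bithorax complex (right), for each list, with the number of windows on the vertical axis. The black line marks the complex, which lies in the lower tail of each distribution, with between 0.122% and 1.59% of windows at or below it.

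The low windows fell into separate stretches. In replicate 1 and in the series-wide list, sequence of each complex was among those of the other. Overlapping windows covered no more than the Antennapedia complex formed 7 separate stretches in replicate 1, 17 in replicate 2 and 4 in the series-wide list, that of the complex included. One of the others held most of the bithorax complex in replicate 1 and in the series-wide list, but none touched it in replicate 2. For the bithorax complex there were 4, 16 and 3 such stretches. In all 3 lists one of them lay over the left part of the Antennapedia complex and the sequence beyond its left edge. X had none in replicate 1 or in the series-wide list for either complex, and 3 in replicate 2 for each.

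In bins of 10 kb the picture was the same. A region touched 2 of the 35 bins of the Antennapedia complex in each replicate, against 51.2% of bins on the arms in replicate 1 and 43.4% in replicate 2. In the bithorax complex 1 of 32 bins was touched in replicate 1 and 4 of 32 in replicate 2. The series-wide list touched 3 bins of each complex, against 66.7% of bins on the arms.

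The few regions of the Antennapedia complex sat together near the middle of the window and were found by both replicates. Replicate 1 had a region from 2635199 to 2637445 with a score of 0.575 and another from 2640092 to 2642085 with a score of 0.460. Replicate 2 had regions from 2635064 to 2638268 with a score of 0.536 and from 2638724 to 2642016 with a score of 0.510. The replicates thus placed the same pair of regions in 1 short stretch, which begins 155 kb from the left edge of the window. The replicate 1 regions lay at 100% and 96.5% inside regions of replicate 2, whose own were wider, at 3205 and 3293 bases against 2247 and 1994. Over the complex the replicates shared 4172 of the 6567 bases covered in either, a Jaccard index of 63.5%, against 74.6% in its flanks and 57.6% on the 4 arms.

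Scores of this pair were ordinary to low for their lists. The scale of the scores is not stated, so they are compared only within a list. In replicate 1 they stood above 50.2% and 18.7% of all regions, and in replicate 2 above 40.5% and 31.8%. The median score was 0.517 in the Antennapedia complex and 0.563 in its flanks in replicate 1, and 0.523 and 0.512 in replicate 2.

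The series-wide list held the same pair and added a region on each side of it. The pair ran from 2635022 to 2638309 with a score of 0.451 and from 2638666 to 2642126 with a score of 0.389. The additions ran from 2642221 to 2644728, directly beside the pair, with a score of 0.247, and from 2583236 to 2584405, about 50.6 kb to its left, with a score of 0.270. Neither addition overlapped a region of a replicate, and they stood above 3.37% and 5.88% of the regions of their list. They account for most of the 3860 bases that this list covered in the complex without support from a replicate.

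The bithorax complex had no region inside it that all 3 lists shared. The single region of replicate 1 ran from 12478327 to 12481034 with a score of 0.575 and lay across the left edge, with 1035 of its 2708 bases in the window. Replicate 2 had a region at the same edge, from 12479141 to 12480902, with a score of 0.451, and so did the series-wide list, from 12478420 to 12481037, with a score of 0.408. Apart from this region at the edge, replicate 1 covered no base of the window.

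Replicate 2 had another pair of regions within the bithorax complex. One ran from 12548337 to 12550398, about 68.3 kb from the left edge, with a score of 0.617 that stood above 66.6% of its list. The series-wide list had a narrower region inside it, from 12548699 to 12549812, with a score of 0.391. The other, from 12655342 to 12656929, had a score of 0.195, and only 2 of the 6901 regions of replicate 2 scored lower. It overlapped no region of replicate 1 or of the series-wide list. The series-wide list also had a region from 12556625 to 12558129 with a score of 0.261, above 4.82% of its list and in neither replicate. Of the 4685 bases covered in either replicate over this complex 903 were shared, a Jaccard index of 19.3%, against 47.6% in its flanks. All of the shared bases belong to the region at the left edge.

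**Figure D4:**
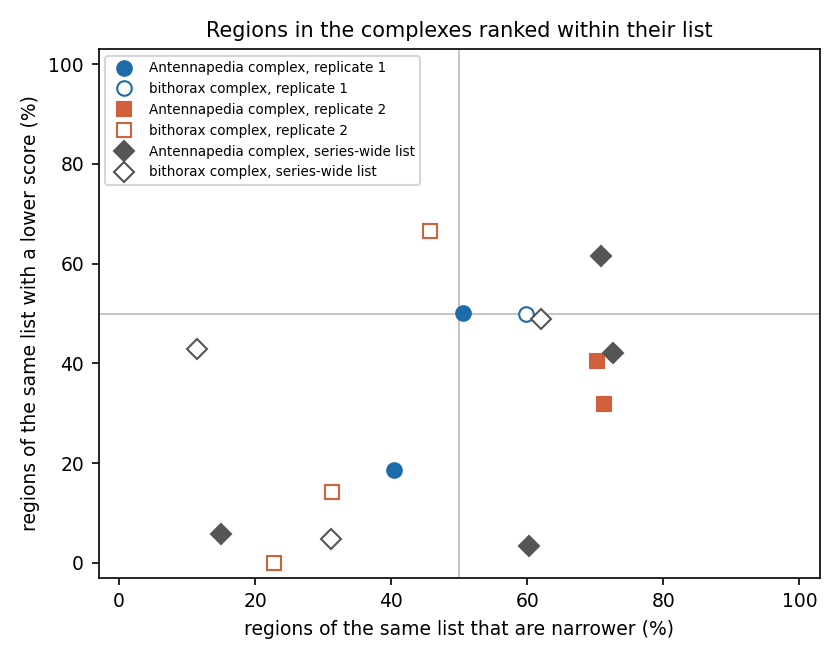
Each region that touches a complex, placed by the share of regions of the same list that are narrower (horizontal axis, %) and that score lower (vertical axis, %). Filled symbols are regions of the Antennapedia complex and open symbols those of the bithorax complex. The highest stands above 66.6% of its list by score and the widest above 72.6% by width, and 4 of the 15 score above less than 6% of their list.

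None of the regions of the complexes was long. The widest had 2247 bases in replicate 1 and 3293 in replicate 2 in the Antennapedia complex, and 2708 and 2062 in the bithorax complex. Blocks of 10 kb or more, of which replicate 1 had 268 and replicate 2 had 182, were absent from both windows. The flanks of the Antennapedia complex held 3 of them in each replicate, among them a block of 29.7 kb in replicate 1 and 23.8 kb in replicate 2, whose near end lay 206 kb and 207 kb to the left of the window. The flanks of the bithorax complex held none in any list. There the nearest such block lay 352 kb to the left in replicate 1 and 351 kb in replicate 2, and 732 kb and 731 kb to the right.

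Between these regions the complexes consisted of long region-free stretches. The Hox windows were chosen with long region-free stretches on 3R already known from these data, so the ranks below are a description only. In replicate 1 a single stretch of 333 kb, from 12481035 to 12814501, took in all of the bithorax complex except the region at its left edge. It was the 4th longest of 6252 region-free stretches on 2L, 3L, 3R and X, whose median was 3.36 kb. In replicate 2 the same sequence was split by the pair of regions given above, into stretches of 67.4 kb, 104.9 kb and 151.6 kb, which ranked 317, 150 and 81 of 5186. The rank of the bithorax complex by this measure thus differed between the replicates. The series-wide list lacked the region from 12655342 to 12656929, and its longest stretch was 250.4 kb, which ranked 4 of 8796.

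The Antennapedia complex was divided alike in both replicates. A stretch of 348.5 kb in replicate 1 and 348.8 kb in replicate 2 ran up to the central pair of regions from the left, and ranked 3 and 2. A stretch of 274.0 kb in each replicate followed the pair on the right, and ranked 7 and 11. The left stretch reached 193 kb and 194 kb beyond the window, more than its 155 kb inside it, and the right stretch reached 86.1 kb and 86.0 kb beyond. Region-free stretches of 30 kb or more made up 98.0% of the Antennapedia complex in each replicate, and 99.7% and 98.6% of the bithorax complex in replicates 1 and 2. Over the 4 arms they made up 48.5% and 57.6%.

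**Figure D5:**
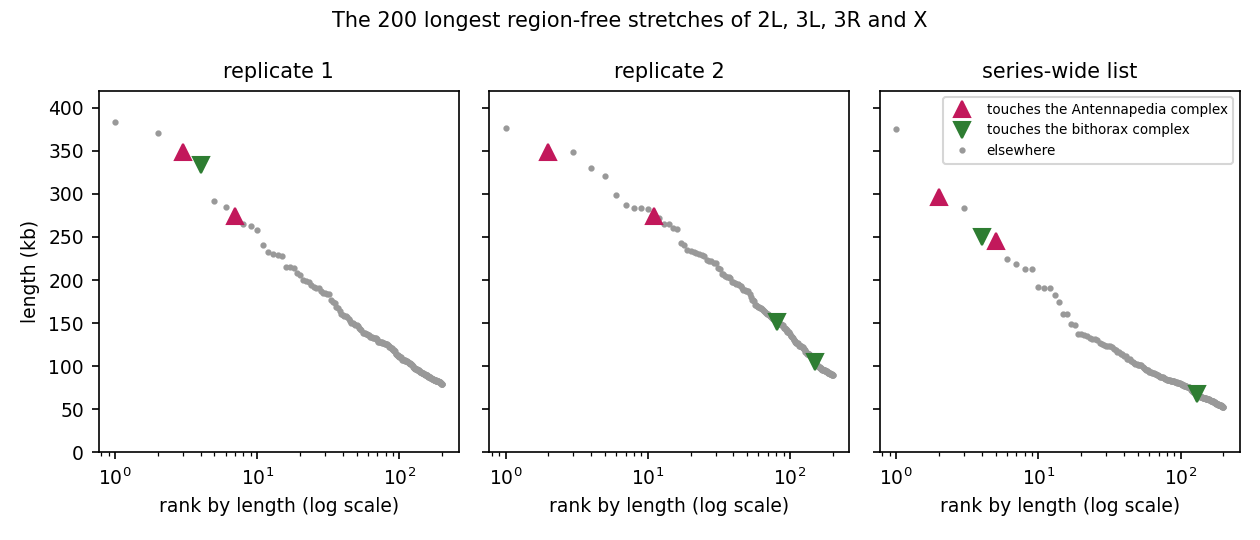
Length in kb (vertical axis) of the 200 longest region-free stretches on 2L, 3L, 3R and X, ordered by rank on a log axis, for each list. Triangles mark stretches that touch a complex. The Antennapedia complex has 2 of the 11 longest in each list, while the bithorax complex ranks 4 in replicate 1 and in the series-wide list and no higher than 81 in replicate 2.

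The edges of the empty territory differed between the complexes. Around the Antennapedia complex it went on well past the window. The 3 steps of 50 kb next to its left edge held no covered base in any list, and the fourth held 3.39%, 2.85% and 4.74% in replicate 1, replicate 2 and the series-wide list. The fifth step, from 200 to 250 kb away, was covered at 81.2%, 82.7% and 89.3%. Regions were thus dense directly beyond the empty sequence on that side. On the right the first 50 kb were empty in all 3 lists, and the next 50 kb were covered at 18.9%, 17.4% and 24.2%. From the nearest region outside on the left to the nearest on the right, 629.4 kb in replicate 1 and 629.7 kb in replicate 2 held only the central pair of regions.

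Around the bithorax complex, regions came close to both window edges. The nearest region outside the left edge lay 11.6 kb away in replicate 1 and 11.8 kb in replicate 2, beyond the region that crosses the edge. On the right the nearest lay 14.5 kb and 8.52 kb away. The first 50 kb outside were covered at 27.3% and 12.6% on the left and at 12.6% and 17.1% on the right in replicates 1 and 2. Cover on the right was highest between 100 and 150 kb from the window, at 46.9% and 42.9%. In each replicate a region lay at most 14.5 kb outside either edge of the bithorax complex, whereas none lay closer than 86.0 kb to the Antennapedia complex. The windows are fixed lengths of sequence and not boundaries read from these data, so these distances depend on where their edges were set.

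The series-wide list held more of the sequence of the Antennapedia complex than either replicate did. In the Antennapedia complex it covered all 6567 bases found in either replicate and 3860 more. In the bithorax complex it covered 2149 of the 4685 bases found in either replicate and 1508 more, and left 2536 out. Relative to the 4 arms, which this list covered at 31.7%, the Antennapedia complex had 0.094 times and the bithorax complex 0.036 times their covered share. In replicates 1 and 2 these ratios were 0.057 and 0.108 for the Antennapedia complex and 0.015 and 0.083 for the bithorax complex.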

How the data were processed

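ChIP-seq for H3K27me1 was analysed from 3 lists of enriched regions, 1 for each of 2 ChIP replicates and 1 for the whole series (the series-wide list). Positions are on FlyBase release 5, per the file headers. Bowtie 0.12.7 is named in the submitters' processing notes, with no role. Not given in the sources used here are which program called the regions, at what cutoff, with what role for the input, and how the series-wide list was built. For each region the authors deposited a score of enrichment with no stated scale, and no fold was computed from it. Read depth is unknown, so no counting error is given. The series-wide list also holds 3 entries marked as depletion, 2 on 2R and 1 on 3L; they were left out here and none lies in a Hox window.

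A single region of replicate 1 and 2 of the series-wide list were trimmed at a scaffold end. Covered share is the percentage of bases inside regions. Windows of the same length were moved in 1 kb steps along 2L, 3L, 3R and X, and flanks are 300 kb on each side. Regions of different lists count as overlapping from 1 bp. The window procedure equalled direct counting in 571 of 571 simulated windows. Python 3.11.15, numpy 2.4.6, pandas 2.3.3 and matplotlib 3.10.9 were used.

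The Hox windows, genes and comparisons were chosen with earlier results of these data known, long region-free stretches on 3R included. The regions named are all those that touch a window and the nearest outside. Values per Hox gene were planned but not made, because the gene table is on release 6. Alternatives varied the regions counted, the window edges, the flank length, the comparison windows and the list.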

Additional observations from a re-analysis of the deposited data

How the results depend on the processing

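Of 75 recomputed values for 9 results, none with a sign changed direction. Among them, 56 moved by no more than the SD of the replicates, and 19 moved by more. With 2 replicates, leaving out either cannot move a mean by more than that SD. Those alternatives were thus bound to fall among the 56 and are no check of stability. The cause of a move was not tested except where an alternative counts fewer regions or other sequence. Covered shares, differences, window shares and stretch lengths below are means of the 2 replicates, unless a list or a left-out replicate is named. With only the regions that score at least the median of their list, the Antennapedia complex was covered at 0.321% ± 0.454 (SD). Its difference from its flanks was -14.2 percentage points. The longest region-free stretch touching it averaged 506 ± 204 kb, and in replicate 2 no region of that complex passed the filter. That filter gave a difference of -6.71 points for the bithorax complex, put 2.14% of windows at or below it, and left 0 shared bases between the replicates in the complexes, against a Jaccard index of 45.1%. With regions of at least 2 kb alone, the values for the Antennapedia complex were -16.0 points, 2.80% of windows and 361.6 kb. Windows shortened by 20 kb at both ends gave 1.93% of windows for the Antennapedia complex, and windows lengthened by 20 kb gave the bithorax complex a covered share of 2.91% and 2.75% of windows, since they take in regions beside it. The series-wide list gave the Antennapedia complex 2.98% covered, -22.8 points and 296.2 kb, and the bithorax complex -19.5 points. Flanks of 150 kb gave -7.20 points for the Antennapedia complex, whose near flanks are mostly empty, and -18.5 points for the bithorax complex. Flanks of 600 kb gave -13.7 points for the Antennapedia complex. With either replicate left out, the covered share ran from 1.21% to 1.86% in the Antennapedia complex and from 0.323% to 1.42% in the bithorax complex, so the value for the bithorax complex rests strongly on which replicate is taken. The longest region-free stretch of the bithorax complex was 151.6 kb without replicate 1 and 333 kb without replicate 2; this measure was added to the alternatives after the data were examined. The differences from the flanks were taken within each replicate. No paired analysis was possible because, between ChIP and input samples of the same number, no input list was analysed here.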

Other observations

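Other places on the arms were covered no more than the Antennapedia complex over windows of its length. They formed 6 separate stretches in replicate 1, 16 in replicate 2 and 3 in the series-wide list. Those that recurred in both replicates are given here. A stretch of 2L was among them in all 3 lists, from 15271001 to 15717001 in replicate 1, from 15263001 to 15734001 in replicate 2 and from 15263001 to 15733001 in the series-wide list. So was a stretch of 3L, from 18175001 to 18617001 in replicate 1, from 18110001 to 18621001 in replicate 2 and from 18176001 to 18623001 in the series-wide list. Other stretches were among them in both replicates and not in the series-wide list. On 3R such a stretch ran from 23794001 to 24153001 in replicate 1 and from 23755001 to 24157001 in replicate 2. On 2L one ran from 16895001 to 17373001 in replicate 1 and from 16886001 to 17380001 in replicate 2, and another from 17507001 to 17965001 in replicate 1 and from 17464001 to 18140001 in replicate 2. Which genes lie there was not analysed here.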
